A study of Mus musculus with 8 samples.

Results

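The genes of the vacuolar proton pump (V-ATPase) and of the Ragulator platform were followed in the brown adipose tissue (BAT) of mice without the triglyceride lipase ATGL. The set holds 34 of the 31053 genes in the deposited count table. It comprises 11 subunits of the cytosolic V1 sector of the pump, 9 subunits of the membrane V0 sector, 2 accessory proteins, 3 genes of lysosomal ion channels, the 5 Ragulator subunits, and 4 genes for Rag GTPases and a lysosomal amino acid sensor. The genes were listed by function, but the set itself was chosen by measured values: Atp6v0d2, a V0 subunit, had the highest log2FC among them in the contrast of genotypes. Values of the members in that contrast are therefore given as a description, with no p-value. Where a member is said to be called, this only marks that it passed a threshold. Such a call is no support for a difference, since the set was chosen from the same values.

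The bulk RNA-seq libraries came from the BAT of 4 WT mice and of 4 Ucp1Δ/Δ mice, the latter labelled ATGLKO. Ucp1Δ/Δ mice carried floxed Pnpla2, the gene encoding ATGL, together with a Cre recombinase under the Ucp1 promoter, so recombination was directed to cells that use this promoter and other cells of the depot kept the gene. The labels gave the strain as C57BL6/J and named no treatment, and the study used males throughout. Whether WT mice carried the floxed allele was not given in the sources used here. The labels gave an age of 10 weeks and named the stromal vascular fraction as the cell type, whereas the study's text described whole BAT of a younger age. Adipocyte transcripts were abundant in all libraries: Fabp4 stood at 6530 ± 175 CPM in WT and 4990 ± 877 CPM in Ucp1Δ/Δ mice, and Ucp1 at 2720 ± 1280 and 2150 ± 598 CPM (SD, n = 4 each). CPM are counts per 1000000 counts of the library after TMM scaling, which corrects for differences in library composition.

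Libraries held 2017697 to 3115956 counts in WT and 2240612 to 2941799 in Ucp1Δ/Δ mice (two-sided exact permutation test, p = 0.629, where 0.0286 is the smallest two-sided p for these group sizes). Between 38.4% and 45.6% of these counts came from mitochondrially encoded genes. The detection floor was taken as 3 counts, which corresponded to 0.933 to 1.53 CPM. Pnpla2 was lower in all Ucp1Δ/Δ mice, at 474 ± 59.2 CPM against 2910 ± 191 CPM in WT (log2FC -2.62, SE 0.17, pAdj = 1.97e-07, quasi-likelihood test of edgeR, adjusted by Benjamini-Hochberg over all tested genes). The libraries differed in the RNA of several cell types. The 9 brown adipocyte markers summed to 11300 ± 4010 CPM in WT and 6730 ± 1430 CPM in Ucp1Δ/Δ mice, with overlap. Of these, 3 were called lower (33.3%, beside 7.63% of all tested genes) and 1 higher (11.1%, beside 13.3%). Cidea, among those lower, had 5950 ± 1630 and 2670 ± 623 CPM. The 6 other adipocyte markers summed to 9420 ± 562 and 7080 ± 1290 CPM, with 1 called in each direction (16.7%). The summed CPM of 14 macrophage markers ranged from 86.2 to 122 in WT and from 772 to 1370 in Ucp1Δ/Δ mice. Of the 11 markers tested, 9 were called higher (adjusted p under 0.05), where 13.3% of all tested genes were called higher. Some of them, such as Trem2 with 1 count over the WT mice, passed the filter only through Ucp1Δ/Δ mice. Of the 3 not tested, Fcgr1 did not overlap between genotypes, whereas Cd14 and Cx3cr1 did. Markers of fibroblasts and progenitors summed to 302 to 403 CPM in WT and 880 to 1590 CPM in Ucp1Δ/Δ mice. Of the 6 tested, 5 were called higher, beside the same 13.3% of all tested genes. Skeletal muscle markers varied between mice of either genotype, from 18.7 to 1340 summed CPM in WT and from 57.2 to 1870 in Ucp1Δ/Δ mice.

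The V-ATPase hydrolyses ATP in its V1 sector and moves protons through V0 into lysosomes, endosomes and secretory vesicles, which keeps lysosomal hydrolases active. Several subunits exist as isoforms from separate genes. Some isoforms are found in nearly all cells, and others are used mainly by specialised cells such as osteoclasts, kidney intercalated cells or macrophages. At the lysosomal surface the pump contacts Ragulator, a scaffold that anchors the Rag GTPases. These recruit the kinase complex mTORC1 when amino acids are present.

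Of the 34 members, 32 had at least 1 count, and 28 passed the filter on low counts and entered the test over 8930 genes. Atp6v1b1 and Atp6v0c were listed at 0 in all mice, and Atp6v1c2, Atp6v1g2, Atp6v0e2 and Rragd were counted too rarely. With an adjusted p under 0.05 as the call, 3 tested members were called higher in Ucp1Δ/Δ mice (Atp6v0d2, Tcirg1 and Atp6v0a1) and 3 lower (Atp6v0e, Atp6v1d and Lamtor2). That is 10.7% in each direction, beside 13.3% called higher and 7.63% called lower among all tested genes (21.0% in either direction). The median log2FC of the tested members was -0.0044 and that of all tested genes -0.0087. The CPM of the genotypes did not overlap for 5 members that were higher and 3 that were lower in Ucp1Δ/Δ mice, beside 14.4% and 9.37% of all tested genes. Since the set was proposed from the same contrast, nothing is read from these counts. In bulk tissue, more RNA per cell and more cells of a kind cannot be told apart, which holds for every difference given here.

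Atp6v0d2 encodes the d2 isoform of the V0 subunit that joins the membrane ring to the central stalk, and it is best known from osteoclasts and macrophages. The gene (ENSMUSG00000028238) lies on the minus strand at chr4:19876841-19922605 of GRCm38. It had 1, 0, 0 and 0 counts in WT mice 1 to 4, and 122, 165, 46 and 89 counts in Ucp1Δ/Δ mice 1 to 4. These correspond to 0.51, 0, 0 and 0 CPM in WT and to 43.2, 51.3, 19.2 and 38.2 CPM in Ucp1Δ/Δ mice. The genotypes did not overlap, and Ucp1Δ/Δ mouse 3 was the lowest of its group. The pooled counts, scaled for library size, gave a ratio of 359 with a 95% interval of 64.1 to 14200, which covers counting error only. The fitted log2FC was 7.90 (SE 0.59), and because WT rested on 1 count it moved with the prior count, to 5.42 at a prior of 2.

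Its ubiquitous paralog Atp6v0d1, which encodes the d1 isoform used by most cells, had 30.1, 43.9, 28.4 and 27.4 CPM in WT and 32.9, 38.9, 25.1 and 36.5 CPM in Ucp1Δ/Δ mice. Here the genotypes overlapped throughout (log2FC 0.04, SE 0.21). The coding sequences of the pair were 65.9% identical over 1053 aligned bases, and no stretch of 75 bases, the read length, was shared between the annotated transcripts of either gene and those of another gene. The last 60 coding bases of each, from exon 8, are shown because they illustrate how far the paralogs differ in sequence. Both are written on the coding strand from GENCODE transcripts on GRCm38 (chr4:19878219-19878278 for Atp6v0d2 and chr8:105524903-105524962 for Atp6v0d1, both minus strand), with capitals at the 18 positions that differ.
Atp6v0d2: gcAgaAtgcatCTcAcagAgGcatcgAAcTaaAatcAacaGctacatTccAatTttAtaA
Atp6v0d1: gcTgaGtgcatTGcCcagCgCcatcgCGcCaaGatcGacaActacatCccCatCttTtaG

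**Figure D1:**
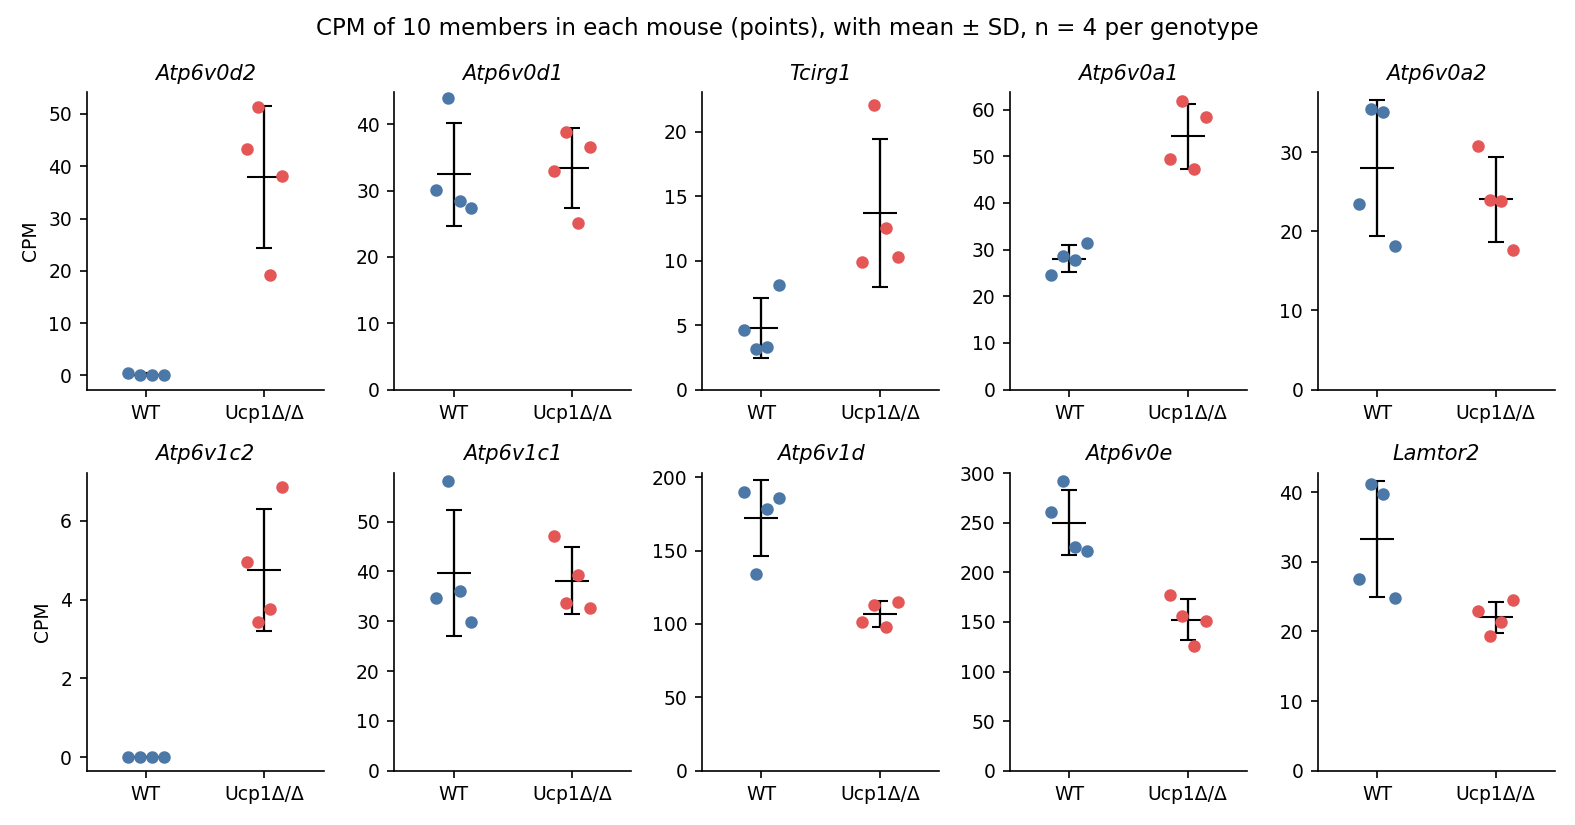
CPM (y axis) of 10 members in WT and Ucp1Δ/Δ mice, with 1 point per mouse and bars for the mean ± SD (n = 4 per genotype). Atp6v0d2 lay between 0 and 0.51 CPM in WT and between 19.2 and 51.3 CPM in Ucp1Δ/Δ mice, while Atp6v0d1 overlapped between genotypes.

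Isoform use was next described as the share of each gene in the counts of its subunit family, per mouse. Counts were not corrected for transcript length, so shares are compared between mice and not between genes. Atp6v0d2 took 1.67% of the Atp6v0d counts in WT mouse 1 and 0% in the other WT mice. Exact 95% binomial upper limits there were 8.94%, 3.69%, 4.25% and 6.60% for WT mice 1 to 4. In Ucp1Δ/Δ mice 1 to 4 the share was 56.7%, 56.9%, 43.4% and 51.1% (mean 52.0% ± 6.36, SD, n = 4).

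The a subunit of V0 is the part that forms the proton path with the ring, and its isoforms direct the pump to different membranes. Tcirg1 encodes the a3 isoform, known from osteoclasts and lysosome-related organelles. It had 9, 7, 10 and 16 counts in WT and 28, 71, 30 and 24 counts in Ucp1Δ/Δ mice. In CPM these were 4.59, 3.14, 3.34 and 8.11 against 9.91, 22.1, 12.5 and 10.3, so that all Ucp1Δ/Δ mice were above all WT mice and mouse 2 stood highest (log2FC 1.56, SE 0.36). Atp6v0a1, the broadly expressed a1 isoform, had 24.5, 28.7, 27.7 and 31.4 CPM in WT and 49.5, 61.9, 47.2 and 58.4 CPM in Ucp1Δ/Δ mice. It was the ubiquitous subunit with the highest fold, with a gap between genotypes wider than the range of either (log2FC 0.95, SE 0.17). Atp6v0a2, which encodes the a2 isoform of Golgi and endosomes, had 23.5, 35.4, 35.1 and 18.2 CPM in WT and 30.8, 24.0, 23.8 and 17.6 CPM in Ucp1Δ/Δ mice, with full overlap (log2FC -0.23, SE 0.24).

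Within the a family, Atp6v0a1 accounted for 46.4% ± 5.71 of the counts in WT and 59.1% ± 5.80 in Ucp1Δ/Δ mice. For Atp6v0a2 the share was 45.5% ± 10.0 and 26.3% ± 6.26. The share of Tcirg1 was 8.12% ± 4.35 and 14.6% ± 4.27 (SD, n = 4 each). Only the shares of Atp6v0a1 were apart between all mice of the 2 genotypes, and those of the other two overlapped.

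**Figure D2:**
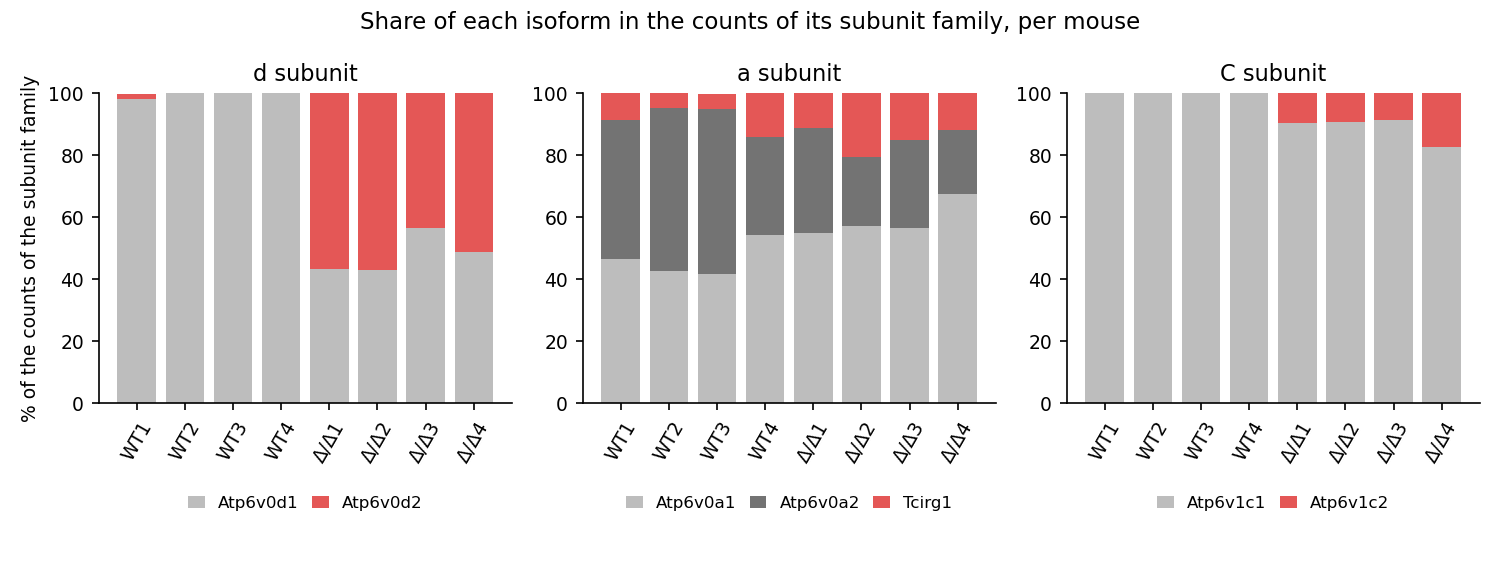
Stacked bars give, for each mouse (x axis), the percentage of the counts of a subunit family (y axis) that fell on each isoform, for the d, a and C subunits. In Ucp1Δ/Δ mice Atp6v0d2 took 43.4% to 56.9% of the d family and Atp6v1c2 8.74% to 17.4% of the C family, whereas in WT mice these isoforms took at most 1.67% and 0%.

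Among the other V0 genes, Atp6v0e, a small membrane subunit, had 261, 292, 226 and 222 CPM in WT and 177, 156, 126 and 151 CPM in Ucp1Δ/Δ mice, with no overlap (log2FC -0.71, SE 0.17). Atp6v0b, a subunit of the proton-carrying ring, overlapped between genotypes with 160 ± 32.2 and 136 ± 17.8 CPM (log2FC -0.24, SE 0.18). The isoform Atp6v0e2, reported mainly from neural tissue, had 6, 3, 4 and 2 counts in WT and 12, 13, 5 and 8 in Ucp1Δ/Δ mice, too few to be tested. It took 0.665% ± 0.336 of the Atp6v0e counts in WT and 2.18% ± 0.39 in Ucp1Δ/Δ mice, and these shares did not overlap. Atp6v0c encodes the main ring subunit and is expected in nearly all cells, so its listing at 0 in all mice is not read as absence of the transcript. Of 3419 stretches of 75 bases in its annotated transcripts, 9.24% also occurred in those of its processed pseudogenes Atp6v0c-ps2 and Atp6v0c-ps1, and whether shared reads were discarded in counting was not tested.

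In the V1 sector, Atp6v1c2 had a pattern like that of Atp6v0d2 at lower counts. It encodes the C2 isoform of the subunit that links V1 to the stalks, and is known mainly from kidney, lung and epididymis. There were 0 counts in each WT mouse, and 14, 11, 9 and 16 counts in Ucp1Δ/Δ mice 1 to 4, or 4.95, 3.42, 3.76 and 6.87 CPM. Against a floor of 3 counts over the WT group, this was at least 14.2-fold higher. Atp6v1c2 did not pass the default filter. It was called higher in the alternatives that tested it, with a log2FC of 6.56 when at least 1 count in any mouse was required and 5.82 with DESeq2. Those 2 settings called 1630 of 16617 and 1290 of 12312 genes higher. Atp6v1c2 entered these fits only through its counts in Ucp1Δ/Δ mice, so the calls are no support for the difference. An exon of the gene Pdia6 on the opposite strand overlaps it, and the strand setting of the counting was not given. Pdia6 had 79.6 ± 13.1 CPM in WT and 59.6 ± 6.71 CPM in Ucp1Δ/Δ mice (log2FC -0.41, SE 0.17), and whether its reads were counted for Atp6v1c2 was not tested.

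The paralog Atp6v1c1 had 34.7, 58.2, 36.1 and 29.9 CPM in WT and 47.1, 33.6, 39.3 and 32.6 CPM in Ucp1Δ/Δ mice, which overlapped (log2FC -0.06, SE 0.22). Atp6v1c2 took 11.2% ± 4.12 of the counts of this family in Ucp1Δ/Δ mice and 0% in WT, where the upper limits per mouse were 2.80% to 6.06%. The pair shared 66.5% of 1121 aligned coding bases.

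Among the ubiquitous V1 subunits, Atp6v1d, which encodes the rotating shaft, was the one called. It had 190, 134, 178 and 186 CPM in WT and 101, 113, 97.8 and 115 CPM in Ucp1Δ/Δ mice, without overlap (log2FC -0.69, SE 0.17). The catalytic subunit Atp6v1a had 123 ± 13.5 CPM in WT and 136 ± 18.3 CPM in Ucp1Δ/Δ mice (log2FC 0.14, SE 0.17). Its partner in the catalytic ring, Atp6v1b2, had 98.9, 116, 106 and 94.7 CPM in WT and 126, 156, 122 and 139 CPM in Ucp1Δ/Δ mice. The genotypes were apart for Atp6v1b2, but the difference did not pass the threshold (log2FC 0.39, SE 0.16). Atp6v1e1 and Atp6v1g1, both of the peripheral stalks, had log2FC of 0.13 and -0.23, while Atp6v1f of the central stalk had -0.14 and the regulatory subunit Atp6v1h -0.23. All of these overlapped between genotypes. The tissue-restricted Atp6v1b1, known from kidney and inner ear, was listed at 0 beside 957 counts for the B family in WT and 1474 in Ucp1Δ/Δ mice. Atp6v1g2, a G isoform of neurons, had 8, 14, 16 and 6 counts in WT and 12, 5, 9 and 5 in Ucp1Δ/Δ mice, and its share of the G family was 12.9% ± 2.68 and 9.78% ± 4.03.

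Summed over the 14 ubiquitous subunits, the pump stood at 1470, 1500, 1500 and 1360 CPM in WT and at 1340, 1400, 1230 and 1300 CPM in Ucp1Δ/Δ mice (means 1460 ± 67.5 and 1320 ± 69.0). Of the 13 of them that were tested, 1 was called higher (7.69%, beside 13.3% of all tested genes) and 2 lower (15.4%, beside 7.63%), with a median log2FC of -0.144. The 6 tissue-restricted subunits summed to 12.2, 10.8, 10.0 and 12.2 CPM in WT and to 66.5, 82.5, 41.4 and 60.9 CPM in Ucp1Δ/Δ mice (means 11.3 ± 1.09 and 62.8 ± 17.0). That sum was 5.56 times as high in Ucp1Δ/Δ as in WT mice, and most of the Ucp1Δ/Δ value was Atp6v0d2. Markers of several other cell types moved with it. For macrophages the summed CPM was 928, 1370, 772 and 873 in Ucp1Δ/Δ mice 1 to 4, with mouse 2 highest and mouse 3 lowest for these markers as for Atp6v0d2. None of the 14 macrophage markers was at 0 in all mice, and Lyz2 had 437 ± 119 CPM, Csf1r 166 ± 29.0 CPM and Gpnmb 145 ± 57.8 CPM in Ucp1Δ/Δ mice. Fibroblast and progenitor markers summed to 1060, 1590, 880 and 1240 CPM in Ucp1Δ/Δ mice 1 to 4 and skeletal muscle markers to 275, 1870, 57.2 and 819 CPM, so mouse 2 was highest and mouse 3 lowest for these as well. The part of macrophage, fibroblast or muscle RNA in the members that were higher was not tested. Nor was the part of adipocyte RNA in those that were lower.

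Osteoclasts also use Atp6v0d2 and Tcirg1, so 10 genes of osteoclasts and fused macrophages were listed beside them. Calcr and Oscar, which mark osteoclasts, were at 0 in all mice. Ctsk, a collagen-degrading cathepsin of osteoclasts, had 2, 2, 0 and 2 counts in WT and 13, 49, 8 and 16 in Ucp1Δ/Δ mice. Tnfrsf11a, the receptor for the osteoclast factor RANKL, had 2, 0, 2 and 0 counts in WT and 10, 17, 6 and 12 in Ucp1Δ/Δ mice. Dcstamp, needed for cell fusion, had 0 counts in each WT mouse and 1, 14, 1 and 4 in Ucp1Δ/Δ mice. These 3 genes, named after their values were seen, did not overlap between genotypes and were too low for the default filter. Among all tested genes, 14.4% were higher without overlap. For Dcstamp the separation rested on 1 count each in Ucp1Δ/Δ mice 1 and 3, below the floor of 3 counts, so nothing is read from it. Ocstamp, Itgb3 and Mmp9, named likewise, overlapped between genotypes. They had 8, 4 and 10 counts over the WT mice and 6, 4 and 20 over the Ucp1Δ/Δ mice. With DESeq2 or the filter of 1 count in any mouse, 4 genes of this list were called higher, namely Ctsk, Tnfrsf11a, Dcstamp and Nfatc1. Dcstamp entered these fits only through Ucp1Δ/Δ mice, so its call is no support. Over all genes, DESeq2 called 1290 of 12312 higher and the filter of 1 count 1630 of 16617. Acp5 and Nfatc1 passed the default filter, of which Nfatc1 was called higher (log2FC 1.28, SE 0.27, pAdj = 0.00326, edgeR with Benjamini-Hochberg adjustment). Acp5, the osteoclast acid phosphatase, named after its value was seen, had 106 ± 13.4 CPM in WT and 85.3 ± 23.1 CPM in Ucp1Δ/Δ mice.

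**Figure D3:**
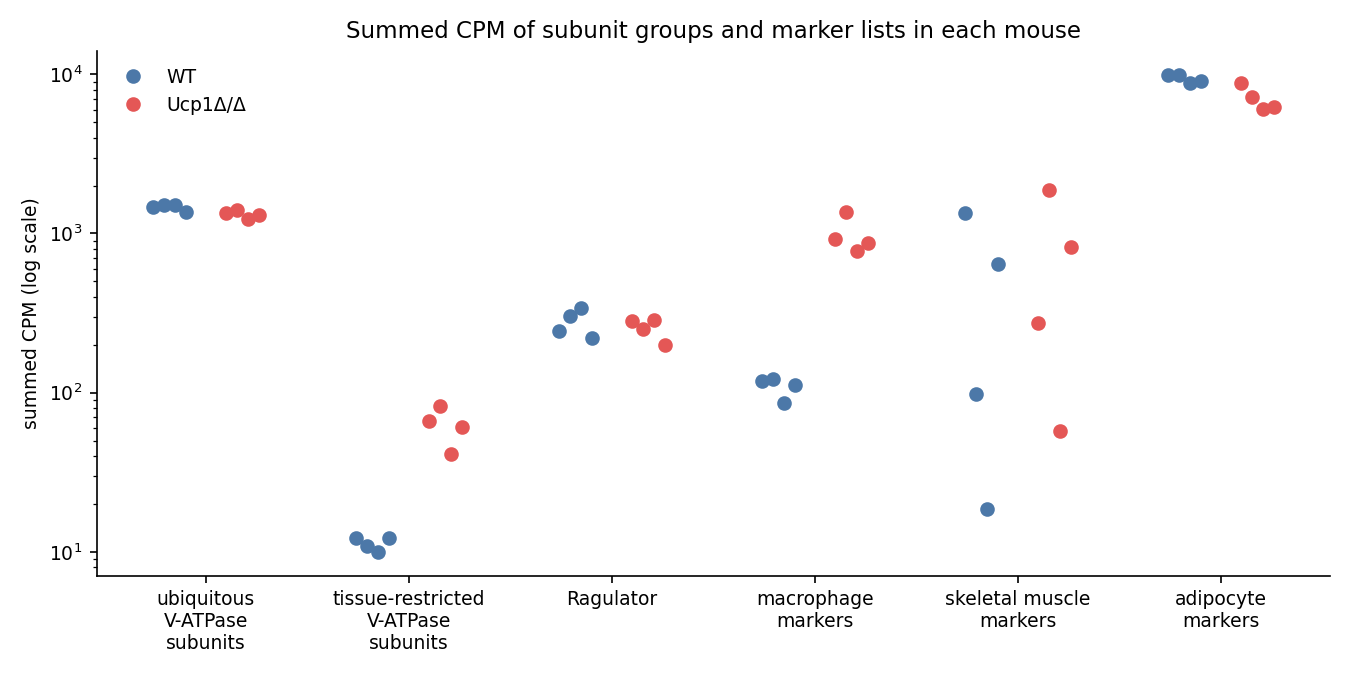
Summed CPM (y axis, log scale) of subunit groups, Ragulator and marker lists, with 1 point per mouse. The tissue-restricted subunits lay between 10.0 and 12.2 CPM in WT and between 41.4 and 82.5 CPM in Ucp1Δ/Δ mice, the macrophage markers also separated the genotypes, and the skeletal muscle markers varied within each genotype.

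The accessory proteins were both higher on average without reaching a call at the default settings. Atp6ap2, the prorenin receptor that assists pump assembly, had 41.3, 66.8, 54.1 and 41.0 CPM in WT and 69.7, 84.0, 74.0 and 67.4 CPM in Ucp1Δ/Δ mice (log2FC 0.54, SE 0.19). The lowest Ucp1Δ/Δ mouse was thus just above the highest WT mouse. Atp6ap1 had 105, 133, 126 and 71.4 CPM in WT and 163, 139, 153 and 121 CPM in Ucp1Δ/Δ mice, and the ranges overlapped (log2FC 0.40, SE 0.20).

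The lysosomal channel genes did not differ beyond their spread. Clcn7, a chloride-proton exchanger, had a log2FC of -0.09 (SE 0.29). Its partner Ostm1 had 7.14, 8.96, 4.34 and 2.53 CPM in WT and 8.84, 8.09, 8.36 and 9.87 CPM in Ucp1Δ/Δ mice (log2FC 0.61, SE 0.34). For Mcoln1, the calcium channel of lysosomes, WT ranged from 8.11 to 22.0 CPM, whereas the 4 Ucp1Δ/Δ mice fell within 14.9 to 15.9 CPM (log2FC -0.02, SE 0.26).

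Of the 5 Ragulator subunits, 1 was called lower and none higher, where all tested genes had 7.63% lower and 13.3% higher. Lamtor2, which pairs with Lamtor3 in the scaffold, had 27.5, 41.2, 39.7 and 24.8 CPM in WT and 23.0, 19.3, 21.3 and 24.5 CPM in Ucp1Δ/Δ mice. The groups nearly met, at WT mouse 4 and Ucp1Δ/Δ mouse 4 (log2FC -0.61, SE 0.21). Its partner Lamtor3 had a log2FC of 0.38 (SE 0.25), with 13.5 ± 4.51 CPM in WT and 17.4 ± 1.74 CPM in Ucp1Δ/Δ mice. Lamtor1, the lipid-anchored subunit that holds the complex on the membrane, had 83.1, 73.9, 108 and 82.6 CPM in WT and 110, 110, 101 and 59.2 CPM in Ucp1Δ/Δ mice, where mouse 4 stood below all others (log2FC 0.13, SE 0.21). Lamtor4 and Lamtor5, the remaining pair, had log2FC of -0.34 and -0.13. Ragulator as a whole summed to 277 ± 55.4 CPM in WT and 254 ± 40.2 CPM in Ucp1Δ/Δ mice.

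The Rag GTPases and the sensor likewise overlapped between genotypes. Rraga ranged from 45.4 to 103 CPM in WT and from 44.2 to 69.7 CPM in Ucp1Δ/Δ mice (log2FC -0.28, SE 0.24). Rragc had 59.8 ± 9.47 and 60.2 ± 5.68 CPM (log2FC 0.01, SE 0.17). The arginine sensor Slc38a9, which signals from inside the lysosome, had 10.6 ± 4.30 and 12.2 ± 1.06 CPM (log2FC 0.19, SE 0.28). Rragd, the paralog of Rragc, had 3, 2, 0 and 3 counts in WT and 5, 8, 1 and 5 in Ucp1Δ/Δ mice and was not tested.

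**Figure D4:**
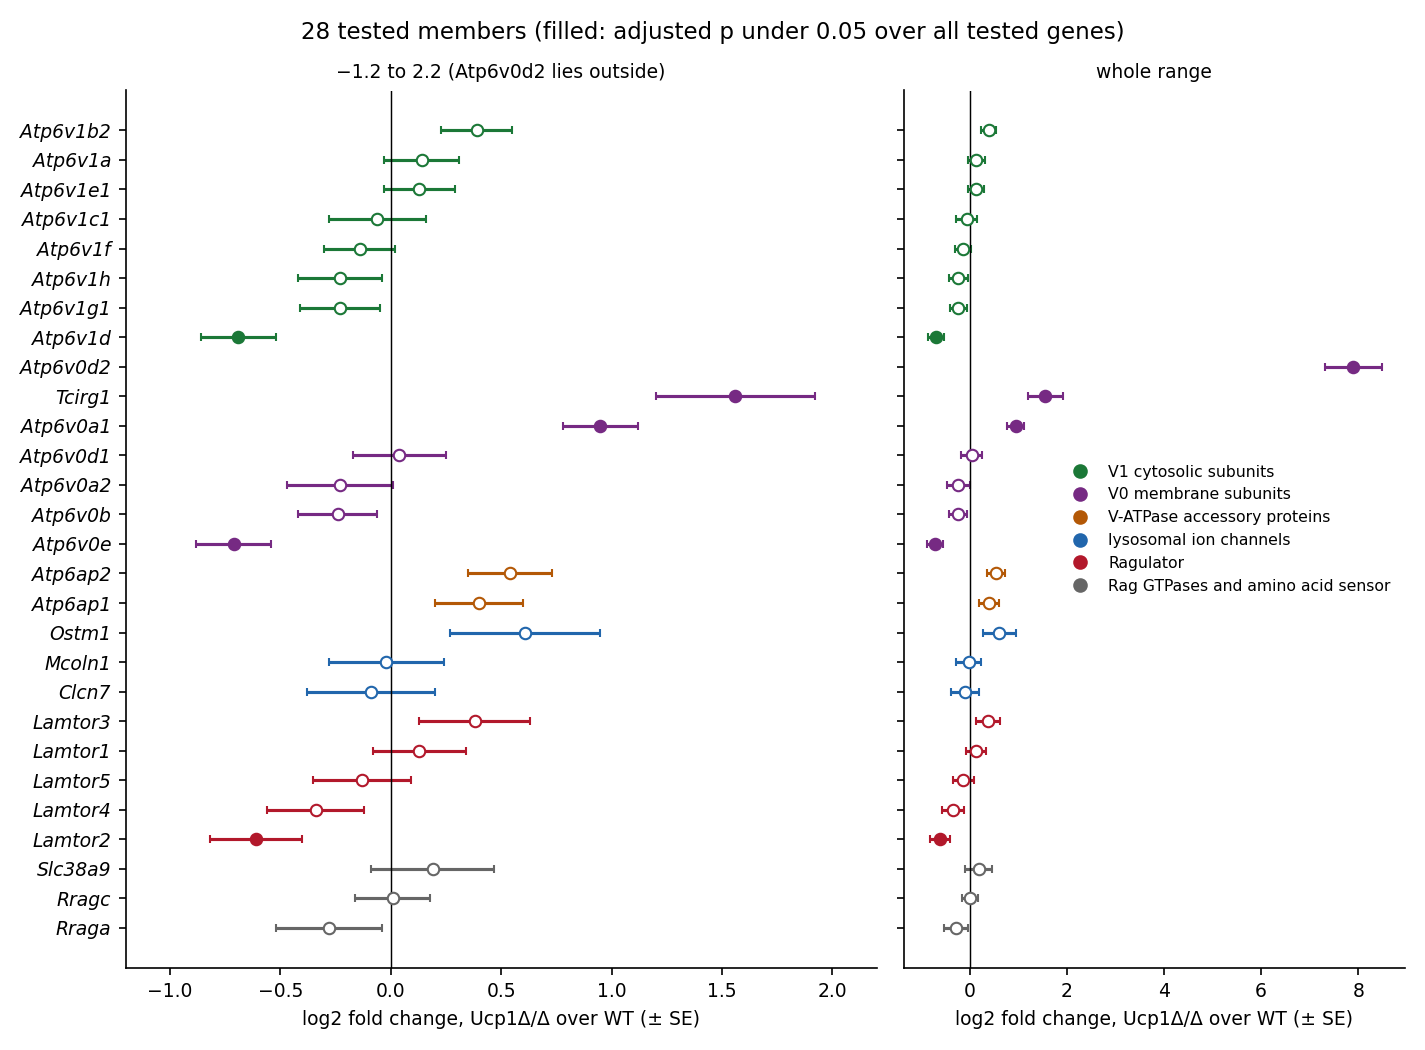
The log2FC of Ucp1Δ/Δ over WT (x axis, ± SE) for the 28 tested members (y axis), coloured by role and filled where the adjusted p was under 0.05. The left panel enlarges the range around 0 and the right panel shows the whole range, in which Atp6v0d2 stands alone at 7.90.

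The calls were repeated with other settings and fewer mice. Without the 2 mice of each genotype with the most skeletal muscle RNA (WT mice 1 and 4, Ucp1Δ/Δ mice 2 and 4), an alternative chosen after seeing the data, Atp6v0e, Atp6v1d and Lamtor2 were no longer called lower, and the members called higher were Atp6v0d2, Tcirg1 and Atp6v1c2. Atp6v0a1 was not called in that fit, which had 2 mice per genotype. Atp6v1c2 entered that fit only through its counts in Ucp1Δ/Δ mice. Lamtor2 was called in 6 of 17 alternatives. Atp6ap2 was called higher in 4 of 17.

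Members also varied between mice of 1 genotype. The coefficient of variation of CPM over the tested members had a median of 24.6% in WT and 12.9% in Ucp1Δ/Δ mice. Counts scattered more than library size and counting predict, with a median chi-square of 4.39 per degree of freedom in WT and 2.94 in Ucp1Δ/Δ mice. Rraga in WT had the highest, at 22.5. Its CPM there were 45.4, 103, 62.4 and 50.7, and WT mouse 2 was the high one. Among Ucp1Δ/Δ mice, Lamtor1 was the most scattered member at 15.2.

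Promoter sequence offered a feature that the choice of members had not used. Genes of lysosomal biogenesis often carry the E-box CACGTG within a longer palindrome, TCACGTGA, bound by the MiT/TFE factors that include TFEB. RefSeq promoters on GRCm38.p6, from 250 bases before to 50 bases after the start site, were found for 27 of the 34 members. They were not matched for Atp6v1b2, Atp6v1c1, Atp6v1g1, Atp6v1h, Atp6v0a2, Atp6v0d2 and Lamtor3. On either strand, CACGTG occurred in 9 of the 27 members (33.3%: Atp6v0b, Atp6v0d1, Atp6v0e, Atp6v1a, Clcn7, Lamtor1, Lamtor4, Mcoln1 and Rragc), against 8.09% of 27025 genes. The longer TCACGTGA, which contains CACGTG, occurred in 5 of them (18.5%: Atp6v0d1, Atp6v0e, Atp6v1a, Clcn7 and Mcoln1), against 1.12% of genes. The 27025 genes were all those with a promoter, and were not matched to the members in expression or base composition. Matches are descriptions of letters and were not tested as binding sites.

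Among the members with a match, Atp6v0e was the one called (lower), and its stretch is not shown. Stretches with a match are shown for a subunit of each sector, a channel and a Ragulator gene, none of them called, with the motif in capitals. They are read 5′ to 3′ on the strand of the gene, at chr16:44139360-44139415 (minus) for Atp6v1a, chr8:105566055-105566110 (minus) for Atp6v0d1, chr8:3500435-3500490 (plus) for Mcoln1 and chr7:101905747-101905796 (plus) for Lamtor1.
Atp6v1a: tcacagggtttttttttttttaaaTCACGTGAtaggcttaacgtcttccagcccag
Atp6v0d1: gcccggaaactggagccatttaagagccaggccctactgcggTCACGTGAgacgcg
Mcoln1: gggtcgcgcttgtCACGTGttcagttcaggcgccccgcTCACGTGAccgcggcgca
Lamtor1: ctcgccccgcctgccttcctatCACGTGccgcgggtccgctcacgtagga

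The members called higher or seen in Ucp1Δ/Δ mice alone that had a matched promoter are shown beside them. Tcirg1 (3 start sites, 1 shown), Atp6v0a1 and Atp6v1c2 held none of these motifs in these windows. The 60 bases before the start site lie at chr19:3907134-3907193 (minus), chr11:101010338-101010397 (plus) and chr12:17324731-17324790 (minus).
Tcirg1: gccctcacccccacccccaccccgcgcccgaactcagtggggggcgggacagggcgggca
Atp6v0a1: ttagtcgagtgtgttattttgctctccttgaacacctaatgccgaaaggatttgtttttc
Atp6v1c2: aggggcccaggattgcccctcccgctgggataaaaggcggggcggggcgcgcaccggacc

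The levels of the MiT/TFE factors themselves were then examined. Mitf, a member of this family known from melanocytes, osteoclasts and macrophages, had 16.3, 7.62, 8.35 and 7.60 CPM in WT and 27.6, 24.3, 14.2 and 35.2 CPM in Ucp1Δ/Δ mice. Mitf overlapped between genotypes and was the 1 of 3 tested factors called higher, where 13.3% of all tested genes were called higher. Its log2FC was 1.36 (SE 0.31, pAdj = 0.00485, edgeR with Benjamini-Hochberg adjustment). Tfeb and Tfe3, named after their values were seen, had log2FC of 0.75 (SE 0.28) and 0.13 (SE 0.23) and were not called. Tfeb did not overlap between genotypes, with at most 7.65 CPM in WT and at least 7.78 CPM in Ucp1Δ/Δ mice.

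Genes around the pump were taken from lists written by function, but with earlier results of these data known. The shares called in these lists are therefore a description, and nothing is read from them. Of 10 tested genes for V-ATPase assembly and regulation, none was called higher and 1 lower (10.0%, near the 7.63% of all tested genes). This was Tmem199, an assembly factor of V0, with 14.8, 16.1, 9.68 and 9.62 CPM in WT and 5.31, 5.60, 5.85 and 3.43 CPM in Ucp1Δ/Δ mice (log2FC -1.29, SE 0.29, pAdj = 0.0050, edgeR with Benjamini-Hochberg adjustment). Of 5 further pump isoforms and related genes, 4 were at 0 and none was tested. As for Atp6v0c, a listing at 0 is not read as absence of the transcript.

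Of 25 tested genes of mTORC1 and its inputs at the lysosome, 2 were called higher (8.0%) and 1 lower (4.0%), both shares below the 13.3% and 7.63% of all tested genes. Deptor, an mTOR-binding inhibitor, had 343, 246, 250 and 303 CPM in WT and 596, 487, 611 and 538 CPM in Ucp1Δ/Δ mice, with no overlap (log2FC 0.97, SE 0.17, pAdj = 0.000655, edgeR with Benjamini-Hochberg adjustment). Slc3a2, the heavy chain of an amino acid transporter, had a log2FC of 0.67 (SE 0.22) and the leucine sensor Sesn2 one of -1.05 (SE 0.31), and both overlapped between genotypes. The call of Slc3a2 was lost in 9 of 17 alternatives and that of Sesn2 in 6 of 17. The median log2FC of this list was -0.265.

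Other lysosomal channels and transporters gave 3 genes higher and 1 lower of 12 tested, where all tested genes had 13.3% higher and 7.63% lower. Slc29a3, a nucleoside transporter, had 10.4 ± 1.66 CPM in WT and 38.8 ± 7.38 CPM in Ucp1Δ/Δ mice (log2FC 1.90, SE 0.22). The peptide transporter Slc15a3 had 0.621 ± 0.647 and 6.54 ± 1.92 CPM (log2FC 3.46, SE 0.56), and the haem transporter Slc48a1 had 117 ± 13.7 and 175 ± 23.4 CPM (log2FC 0.59, SE 0.17). Clcn3, a relative of Clcn7, was lower with a log2FC of -0.56 (SE 0.19), a call lost in 10 of 17 alternatives.

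Lysosomal hydrolases and membrane proteins, the contents that the pump acidifies, had 14 genes called higher and none lower of 34 tested (41.2% beside 13.3% of all tested genes). Their median log2FC was 0.547. This list too was written with earlier results of these data known, so its share is a description. Ctss, a cathepsin of antigen-presenting cells, had 14.3, 12.1, 8.35 and 7.60 CPM in WT and 206, 320, 138 and 226 CPM in Ucp1Δ/Δ mice (log2FC 4.40, SE 0.29, pAdj = 2.04e-07, edgeR with Benjamini-Hochberg adjustment). The lysosomal regulator Grn had a log2FC of 1.39 (SE 0.21), the protease Lgmn 1.83 (SE 0.31) and the membrane protein Cd63 1.31 (SE 0.23). In Ucp1Δ/Δ mice Ctss was highest in mouse 2 and lowest in mouse 3, as were Atp6v0d2 and the summed markers of macrophages, of fibroblasts and of skeletal muscle. Without the mice with the most muscle RNA, 4 of the hydrolase list were called higher. The part of RNA from these cells in the calls was not tested.

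**Figure D5:**
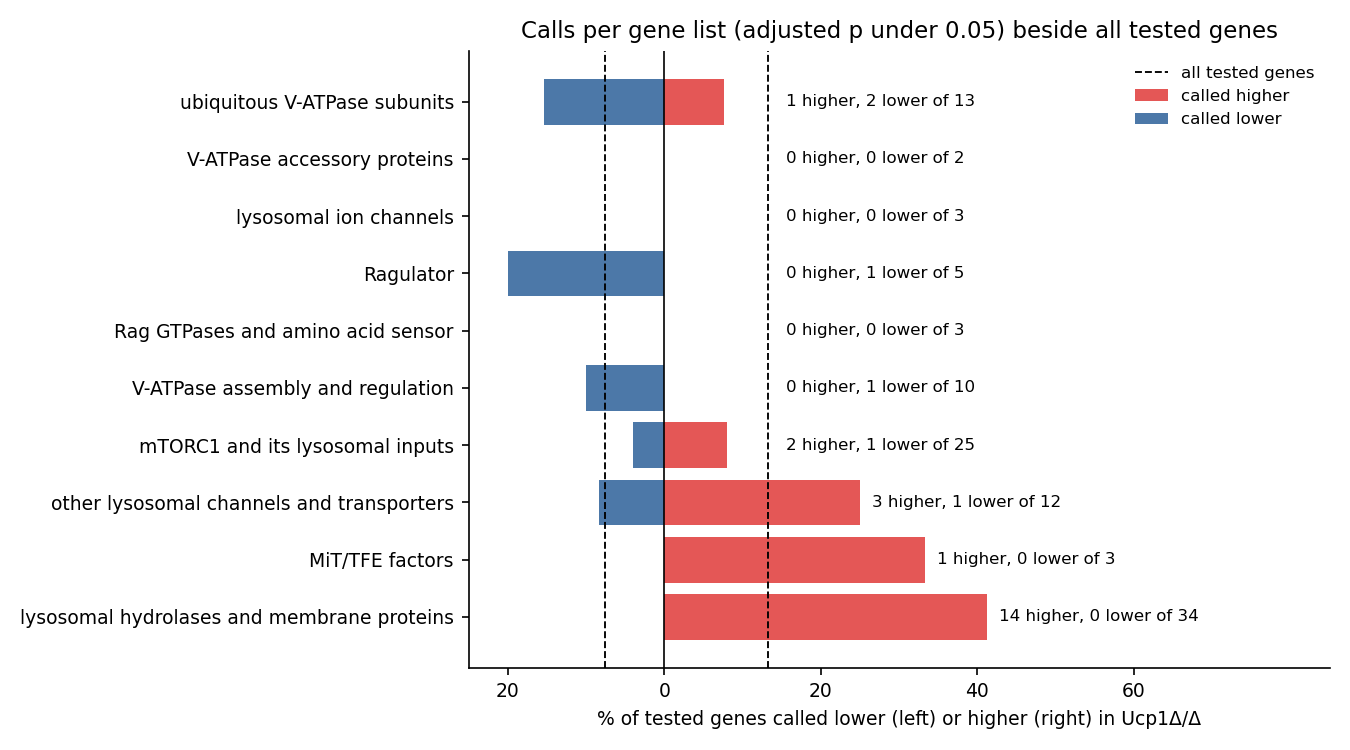
Percentage of the tested genes of each list (y axis) that were called lower (left of 0) or higher (right of 0) in Ucp1Δ/Δ mice, with dashed lines at 7.63% and 13.3% for all tested genes. The tissue-restricted subunits are left out because they passed the filter only where they were high in Ucp1Δ/Δ mice, and the lysosomal hydrolases and membrane proteins had 14 of 34 called higher.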

How the data were processed

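According to the study's methods, the authors used bbduk to trim the single-end reads of a digital mRNA-seq library, STAR to place them on mm10, and HTseq-counts to obtain counts for Ensembl genes. The submitters' processing notes instead name Trimmomatic, HISAT2 and DESeq2, and this difference was not resolved. Strand setting and annotation release are not given in the sources used here. The deposited counts are whole numbers without normalization, 1 column per mouse. The deposited log2 values are the log2 of each count divided by 1 factor per mouse, plus 1, and served 1 alternative.

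Symbols (31011 of 31053 identifiers), gene positions and overlapping exons came from GENCODE vM21, and promoters from RefSeq on GRCm38.p6. Overlap of exons on the opposite strand affects 10 members. Low counts were removed by filterByExpr with default settings, and the rest were TMM-scaled and tested for genotype alone with edgeR 4.0.16 (quasi-likelihood, R 4.3.3). The Benjamini-Hochberg adjustment ran over 8930 genes and calls used an adjusted p under 0.05. Standard errors are the log2FC over the square root of F. Counts were also simulated for WT and ATGLKO over 8715 genes, of which 99 were changed by log2 1 and 100 by log2 2. Of these, 48.5% and 99% were recovered, and 6.96% of calls were unchanged genes. The share of genes changed was well below the 21.0% called in the data, so these figures may not hold for the real contrast. Between mice of 1 genotype, the chi-square per degree of freedom was 5.36 to 25.4, where counting alone gives about 1, so no library is a duplicate.

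The members and all lists were chosen with earlier results of these data known. All 34 members may be named, with Pnpla2, up to 4 called genes with the smallest adjusted p per direction and pathway list, and from each marker list up to 3 genes of highest mean CPM and those at 0. Alternatives were DESeq2 1.42.0 size factors or Wald test, total counts only, TMM without mitochondrial genes, limma 3.58.1 trend on the deposited log2 values, filters of at least 1 count in any mouse or 10 counts in every mouse, the replicate block, a prior count of 2, an adjusted p under 0.01, and leaving out each mouse. Intervals and floors cover counting error only. The mice are separate biological replicates per the series' design.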

Additional observations from a re-analysis of the deposited data

Results flagged for a closer look

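Within a genotype, 4 of 63 groups of 4 mice had a mouse whose gap to its nearest neighbour took most of the group's range, where about 3.15 are given by chance. Atp6v1f in WT mouse 3 stood at 339 CPM, above 276 to 285 CPM in the other WT mice (gap over range 0.854). Lamtor1 in Ucp1Δ/Δ mouse 4 stood at 59.2 CPM, below 101 to 110 CPM in the others (0.852). Slc38a9 in the same mouse stood at 13.7 CPM, above 11.5 to 11.7 CPM (0.909). Atp6v0d2 in WT mouse 1 stood at 0.51 CPM, a single count, beside 0 in the other WT mice (1.0).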

How the results depend on the processing

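The log2FC of Pnpla2 stayed between -2.68 and -2.48 and was called in all alternatives, and no result changed sign among those called. Of the members' log2FC, 463 values moved by less than the spread between mice and 11 by more. With total counts only, which shifted the median log2FC of all tested genes to 0.13, 5 members were called higher, with 5 higher and 0 lower among the other lysosomal channels and 2 higher among the MiT/TFE factors. Requiring 10 counts in every mouse gave 0 lower for V-ATPase assembly, 0 lower for the channels and 0 higher for the osteoclast list, which had 4 higher with at least 1 count in any mouse and 4 with DESeq2. For the mTORC1 list, limma trend gave 1 higher, and the filter of 1 count gave 2 lower. Without the 4 mice with most skeletal muscle RNA, chosen after seeing the data, 0 members were called lower, 0 assembly genes lower, 1 mTORC1 gene higher, 0 channels lower, 4 hydrolases higher and 0 osteoclast genes higher; this fit had fewer mice. Over all genes, it called 760 higher and 265 lower, against 1191 and 681. The all-gene counts also moved by over 1.5 times for total counts only (404 lower), 10 counts in every mouse (746 higher, 449 lower) and without Ucp1Δ/Δ mouse 2 (400 lower).

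Leaving out 1 mouse at a time gave 3 to 4 members higher and 2 to 3 lower, 1 to 3 mTORC1 genes higher and 0 to 2 lower, 0 to 1 channels lower, 0 to 1 hydrolases lower and 1 to 2 osteoclast genes higher. The mean share of Atp6v0d2 was 50.4% to 54.9%. The log2FC of Atp6v0d2 reached 9.61 without WT mouse 1, which held its only WT count. The cause of the other moves was not tested.

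Replicate numbers are shared by the genotypes, but the deviations of same-numbered mice correlated at -0.0873, -0.196, 0.304 and 0.241, so the numbers were not taken as pairs. With the replicate block, 4 members were called higher and 2 lower, 0 mTORC1 genes lower and 0 channels lower, and Pnpla2 had a log2FC of -2.63. Depth limits the members under the filter: 3 counts were 0.933 to 1.53 CPM.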
